A study of Homo sapiens with 32 samples.

Results

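FCER2, CR1, CR2 and CD52 encode 4 proteins of the B cell surface, and their mRNAs were followed here in human B-lymphoblastoid lines as newly made (nascent) RNA and as total RNA. They were taken as the transcript clusters, the sets of probes that an exon array assigns to a gene, whose only platform symbol is one of these names. Each name had exactly 1 such cluster and none on a cluster shared with other genes, which gave 4 of the 14405 clusters with 1 symbol and of 21788 clusters in all. They were chosen by their nascent/total ratios over the 7 lines in an earlier look at these same arrays, as mRNAs with a low ratio, so those ratios are given below as a description and without a test.

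Lymphoblastoid lines are B cells made to grow without limit by Epstein-Barr virus. The study set nascent against total RNA to read mRNA stability and to compare it between lines. For GM12813, GM10835 and GM07029 there were 3 separate cultures of each line, and for GM07019, for GM12812, for GM12814 and for GM12815 a single culture, all in RPMI medium with serum. All 13 cultures received 200 µM 4-thiouridine (4sU) for 2 h, a nucleoside that enters RNA made in that time, and there was no unlabelled group. Labelled RNA and total RNA of each culture went onto separate arrays, 32 in all (16 nascent, 16 total), including a second array in both fractions for each GM12813 culture. Each line comes from 1 person, so its cultures share a donor and a transformation, and p-values between lines rest on the spread between cultures.

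CD23, the product of FCER2, is the low-affinity receptor for IgE. It is cut from the membrane by the protease ADAM10, and it also binds CD21. CD21, the product of CR2, binds fragments of complement C3 on antigen, is the receptor through which Epstein-Barr virus enters B cells, and sits with CD81 in a coreceptor that lowers the threshold of the B cell receptor. CD35, the product of CR1, binds C3b and C4b and serves as a cofactor for their breakdown. CD52 is a very short glycosylphosphatidylinositol (GPI) anchored glycoprotein of lymphocytes and the target of the antibody alemtuzumab. In virus-transformed B cells the viral protein EBNA2, tethered to DNA by the host factor RBPJ, is known to raise FCER2 and CR2.

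CR1 and CR2 are neighbours on chromosome 1 and are read in the same direction, CD52 lies elsewhere on chromosome 1, and FCER2 lies on chromosome 19. CR1 and CR2 were both highest in GM07029 and differed widely between lines, while FCER2 differed less. Stretches of 30 bases of the promoters of FCER2, CR2 and CR1 are shown as a description of these genes. They come from the reference genome, and the sequences of the lines themselves were not seen, so any bearing on the line differences was not tested. The windows are from RefSeq (GRCh38.p14), run 5′ to 3′ on the strand of the gene, and carry a matched motif in capitals. The first 3 hold, in this order, a variant of the TATA box, a core site of RBPJ and the same TATA variant. The window of CR1 lies 40 to 11 bases before its start and holds none of the motifs searched.
FCER2, chr19:7702158-7702187, minus strand: gtggcaagcccaTATTTAggtctatgaaaa
FCER2, chr19:7702300-7702329, minus strand: ccttcagccctgTGGGAActtgctgcttaa
CR2, chr1:207454287-207454316, plus strand: tgtgccggacacTATTTAagggcccgcctc
CR1, chr1:207496117-207496146, plus strand: ggtcaaaagcattttgtcccggaaccccgc
The motifs were searched on both strands from 250 bases before to 50 after each start. Of 35116 RefSeq promoters of that length, 12.6% held TATTTA, 11.5% held TATAAA, 24% the RBPJ core TGGGAA, 6.44% the STAT6 form, TTC and GAA with 4 free bases between them, and 25.6% the NF-kB form, GGGA and CC with 4 free bases between them. FCER2 has 2 annotated starts, and the upstream promoter held the TATA variant, the RBPJ core and the STAT6 form while the other held the RBPJ core. CR2 held TATTTA and the NF-kB form, and CR1 held none of these 5. None of these matches overlapped another. A match describes letters and was not tested as a binding site.

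All 4 genes lay above a single background value in both fractions in each of the 13 cultures. Background was a log2 intensity of 6.39, the 95th percentile of 221 clusters of olfactory receptors, genes not used by B cells, and 14197 clusters (65.2%) had a mean above it and were tested. Of the B cell markers on the array, 7 of 7 were above background, with a mean log2 total RNA between 9.65 and 10.22 in the 7 lines. Of T and NK cell markers 1 of 10 was above it (NKG7), of monocyte and granulocyte markers 1 of 8 (ELANE), and of erythrocyte and of follicular dendritic cell markers, 2 other cell types that carry complement receptors, 0 of 3 and 0 of 5. Of fibroblast markers 3 of 5 (COL1A1, COL1A2 and PDGFRB) were above it, while the mean over the list stayed between 5.59 and 5.89 in total RNA. Array medians ran from 7.58 to 7.92 in nascent RNA and from 6.74 to 6.95 in total RNA. The background was set over both fractions together, and none was set for the brighter nascent arrays alone.

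The nascent/total ratio is the nascent minus the total log2 intensity of a culture, centred on the median cluster of that culture. A value of 0 is therefore the median cluster, and a low value means little newly made RNA for the RNA present. Over the 7 lines the log2 ratio averaged -2.24 ± 0.14 for CD52, -2.04 ± 0.12 for FCER2, -2.04 ± 0.31 for CR1 and -0.42 ± 0.32 for CR2 (SD, n = 7 lines). CD52, FCER2 and CR1 ranked 11, 27 and 28 from the lowest of the 14197 clusters and were below 0 in each of 13 cultures. CR2 ranked 3133, at the 22.1 percentile, and was below 0 in 12 of 13 cultures and 6 of 7 lines. By this measure CR2 goes against the description of the group as long-lived mRNAs, and the other 3 lie below the 1st percentile of all clusters (-1.60). Without centring, the log2 difference between fractions was -1.47 for CD52, -1.27 for FCER2 and -1.26 for CR1, while that of CR2 turned to 0.36. Transcript length and uridine content were not set against the ratio, and no half-life is derived from it.

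FCER2 had nearly the same ratio in every line. Its log2 ratio was -2.26, -2.21 and -2.18 in the GM12813 cultures, -1.97, -2.10 and -2.09 in the GM10835 cultures and -1.87, -2.03 and -2.07 in the GM07029 cultures. In the lines with 1 culture it was -2.09 in GM07019, -1.87 in GM12812, -1.94 in GM12814 and -2.12 in GM12815. The 3 GM12813 cultures were lower than all others, by little. The line means spanned 0.34 on the log2 scale, at the 5.23 percentile of clusters, and no 2 neighbours in their order differed by more than 2 pooled SDs between cultures (SD 0.08).

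CD52 spanned slightly more than FCER2. Its log2 ratio was -2.60, -2.16 and -2.31 in GM12813, -2.24, -2.13 and -2.10 in GM10835 and -2.48, -2.38 and -2.63 in GM07029. It was -2.13 in GM07019, -2.21 in GM12812, -2.09 in GM12814 and -2.24 in GM12815. The line means spanned 0.41, and the SD between lines (0.14) was no larger than the pooled SD between cultures of a line (0.15).

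CR1 varied more. Its log2 ratio was -2.05, -1.92 and -1.97 in GM12813, -1.73, -1.45 and -1.47 in GM10835 and -1.99, -1.89 and -1.93 in GM07029. It was -2.04 in GM07019, -2.06 in GM12814, -2.09 in GM12815 and -2.62 in GM12812. GM10835 stood at the top and the 1 culture of GM12812 at the bottom, both more than 2 pooled SDs from the next line, and the other 5 lines lay between -2.09 and -1.94. CR2 spread most between cultures of a line, with log2 ratios of -0.66, -0.48 and -0.09 in GM12813, -0.65, -0.50 and -0.57 in GM10835 and -0.53, -0.26 and -0.48 in GM07029. It was -0.05 in GM07019, -0.72 in GM12812, -0.79 in GM12814 and 0.06 in GM12815, and no neighbours in the order of lines were more than 2 pooled SDs (SD 0.19) apart.

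**Figure D1:**
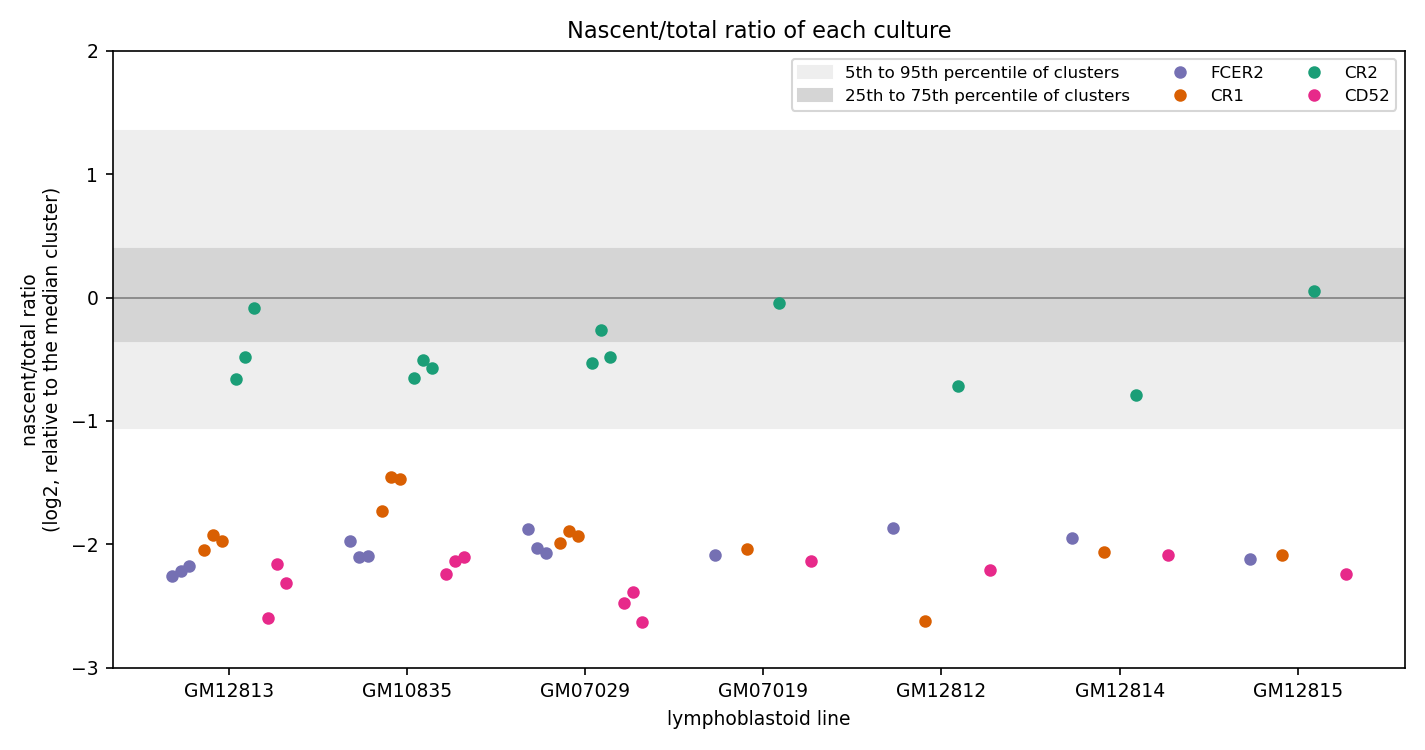
Nascent/total ratio (log2, 0 at the median cluster of each culture) of FCER2, CR1, CR2 and CD52 by line, 1 point per culture, with grey bands for the middle of all 14197 clusters. The points of FCER2, CR1 and CD52 sit below the 5th percentile (-1.05) in all 13 cultures, and those of CR2 sit between -0.79 and 0.06.

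The amounts of these mRNAs differed between lines far more for the complement receptors than for FCER2 and CD52. CR2 spanned 3.39 on the log2 scale in nascent RNA (10.5-fold) and 3.14 in total RNA (8.83-fold) over the 7 lines, at the 99.7 and 99.3 percentile of clusters. CR1 spanned 2.31 in nascent RNA (4.97-fold) and 2.30 in total RNA (4.94-fold). FCER2 spanned 1.09 in nascent RNA and 1.29 in total RNA, and CD52 spanned 0.66 and 0.55, against a median span over all clusters of 0.78 in nascent RNA and 0.79 in total RNA. In RNA from a whole culture, fewer cells with the mRNA and less mRNA per cell cannot be told apart.

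CR2 was highest in GM07029 and lowest in GM12814 in both fractions. In nascent RNA its log2 intensity was 9.40, 9.46 and 9.37 in GM12813, 9.82, 10.03 and 10.02 in GM10835 and 11.12, 11.01 and 10.92 in GM07029. In total RNA it was 9.31, 9.16 and 8.58 in GM12813, 9.65, 9.69 and 9.77 in GM10835 and 10.85, 10.50 and 10.68 in GM07029. The cultures of the 3 lines did not overlap in either fraction, with GM12813 at the bottom, GM10835 between and GM07029 at the top. Among the lines with 1 culture, GM07019, GM12812 and GM12815 lay between 9.36 and 9.48 in nascent RNA and between 8.65 and 9.28 in total RNA. GM12814 stood alone at 7.63 in nascent and 7.53 in total RNA, 1.73 and 1.12 below the next line. The pooled SD between cultures of a line was 0.09 in nascent and 0.25 in total RNA.

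CR1 was also highest in GM07029. In nascent RNA its log2 intensity was 6.56, 6.55 and 6.46 in GM12813, 7.26, 7.55 and 7.50 in GM10835 and 9.07, 8.73 and 8.70 in GM07029. In total RNA it was 7.86, 7.69 and 7.55 in GM12813, 8.17, 8.16 and 8.16 in GM10835 and 10.26, 9.85 and 9.91 in GM07029. The cultures of these 3 lines did not overlap in either fraction. The nascent values in GM12813 lay just above background (6.39), so the nascent difference and the ratio of CR1 in that line rest on dim signal. GM12814 was also low, at 6.66 in nascent and 7.84 in total RNA. Whether the nascent values of GM12813 and GM12814 exceed a background of nascent RNA alone was not tested. GM12815, GM12812 and GM07019 were intermediate, at 7.37, 7.61 and 7.79 in nascent RNA and at 8.81, 9.41 and 9.16 in total RNA. The neighbouring gene CR1L is close to CR1 in sequence and was on the array only in clusters shared by several genes, and whether its RNA adds to the CR1 signal was not tested.

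FCER2 was lowest in GM12814 in both fractions. Its nascent log2 intensity was 10.42, 10.36 and 10.44 in GM12813, 10.39, 10.32 and 10.27 in GM10835 and 10.38, 10.38 and 10.33 in GM07029. Its total log2 intensity was 11.93, 11.79 and 11.74 in GM12813, 11.54, 11.57 and 11.55 in GM10835 and 11.46, 11.64 and 11.68 in GM07029. The 3 lines overlapped in nascent RNA, and in total RNA GM12813 lay above both others. GM07019, GM12812 and GM12815 had 10.10, 10.61 and 10.40 in nascent and 11.52, 11.66 and 11.87 in total RNA. GM12814 had 9.51 in nascent and 10.58 in total RNA, 0.59 and 0.94 below the next line. GM12814 was the lowest line for FCER2 and CR2 and close to the lowest for CR1, with 1 culture and no measure of its own spread.

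CD52 moved in a narrow band. Its nascent log2 intensity was 9.69, 9.94 and 9.75 in GM12813, 9.90, 9.91 and 9.86 in GM10835 and 9.48, 9.26 and 9.10 in GM07029. Its total log2 intensity was 11.54, 11.32 and 11.19 in GM12813, 11.31, 11.20 and 11.14 in GM10835 and 11.15, 10.87 and 11.01 in GM07029. In nascent RNA the GM07029 cultures lay below all of GM12813 and GM10835, while in total RNA GM10835 overlapped both other lines. GM07019, GM12812, GM12814 and GM12815 had 9.69, 9.41, 9.69 and 9.23 in nascent and 11.15, 10.80, 10.89 and 10.82 in total RNA. The order of lines in total RNA had no gap above 2 pooled SDs (SD 0.14).

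**Figure D2:**
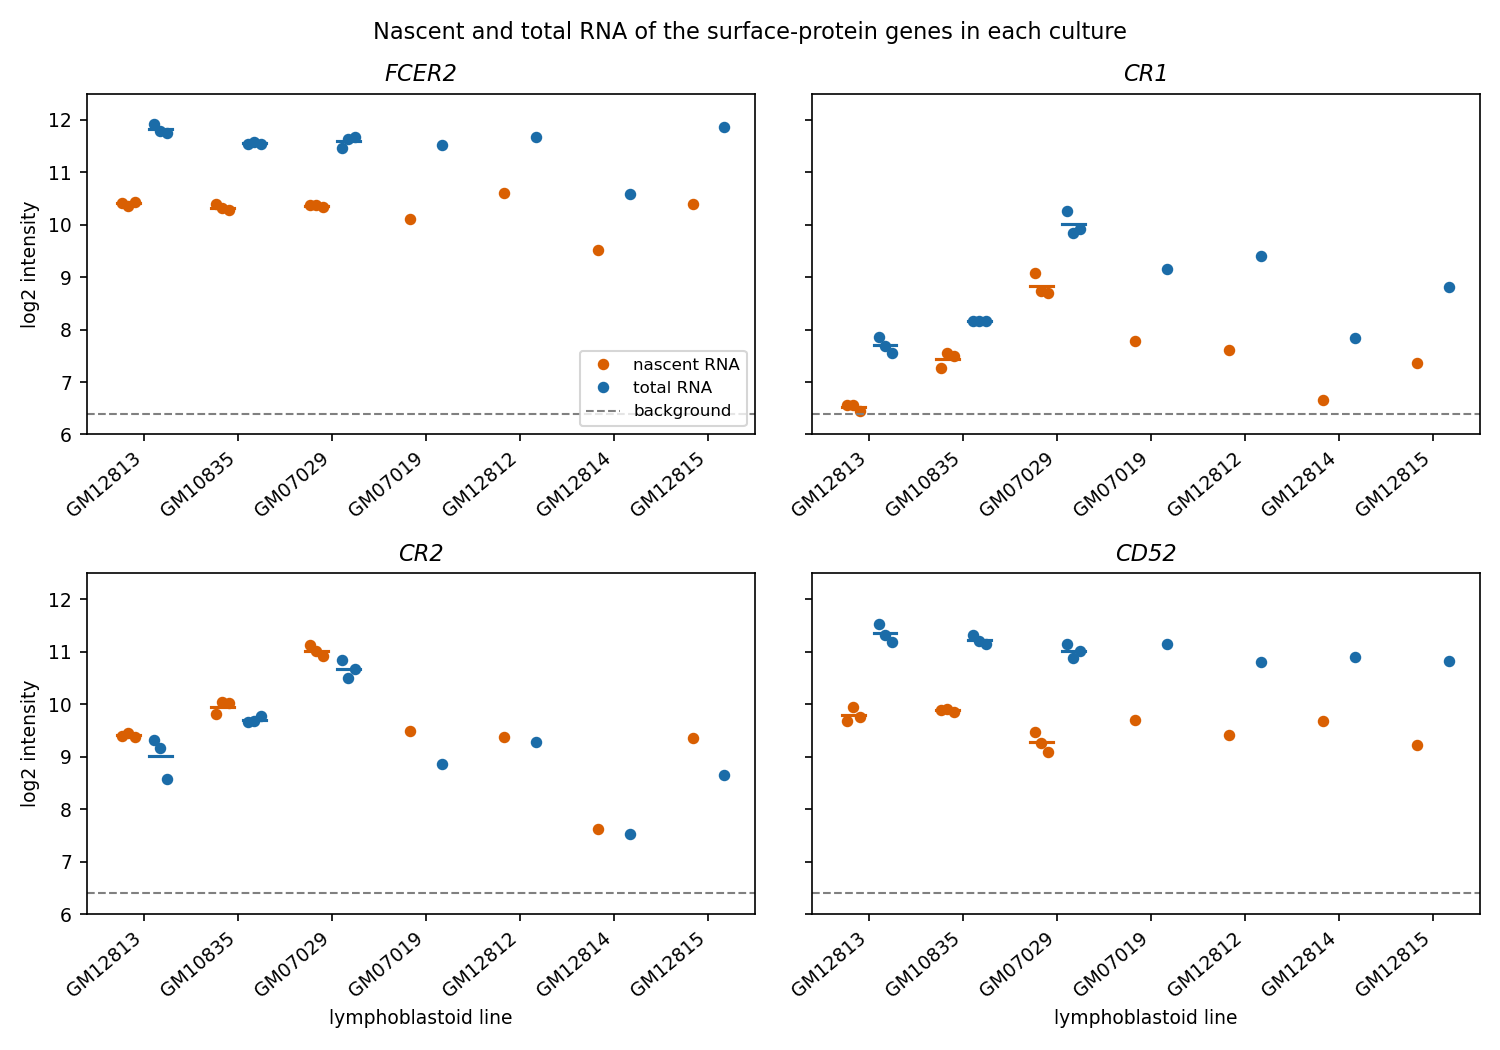
Log2 intensity of nascent RNA (orange) and total RNA (blue) of each gene by line, 1 point per culture, with a bar at the mean of lines with 3 cultures and a dashed line at background (6.39). CR1 and CR2 are highest in GM07029 in both fractions, and FCER2 and CR2 are lowest in GM12814.

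The comparison between GM12813, GM10835 and GM07029, which have 3 cultures each, did not enter the choice of the genes and was tested with limma's moderated F test, adjusted by Benjamini and Hochberg over all 14197 clusters. In nascent RNA 3 of the 4 genes passed an adjusted p of 0.05, against 56.6% of all clusters, in total RNA 3 of 4, against 56.2%, and in the ratio 1 of 4, against 25.3%. With shares this large among all clusters, the counts are no result about the genes, and the sizes of the differences are given instead. Pair by pair, 2 of 4 genes passed in nascent RNA for GM12813 minus GM10835 (43.3% of all clusters), 3 of 4 for GM12813 minus GM07029 (18.2%) and 3 of 4 for GM10835 minus GM07029 (55.2%). In total RNA 3 of 4 passed for GM12813 minus GM10835 (37.9%), 3 of 4 for GM12813 minus GM07029 (24.5%) and 2 of 4 for GM10835 minus GM07029 (47.8%). In the ratio 1 of 4 passed for GM12813 minus GM10835 (23%), and none for GM12813 minus GM07029 (5.77%) or GM10835 minus GM07029 (13.8%). The range of the 3 line means of CR1 was 2.31 in nascent and 2.30 in total RNA, at the 99.5 and 99.2 percentile of clusters. That of CR2 was 1.61 and 1.66, at the 98.5 and 96.9 percentile. The ranges of FCER2 (0.08 and 0.27) and CD52 (0.61 and 0.34) were at the 5.54 and 26.1 and at the 77.9 and 36.8 percentile.

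CR1 fell in GM12813 and in GM10835 relative to GM07029, and in GM12813 relative to GM10835. Its nascent RNA averaged 6.52 ± 0.06 in GM12813, 7.44 ± 0.16 in GM10835 and 8.84 ± 0.21 in GM07029, and its total RNA 7.70 ± 0.15, 8.16 ± 0.01 and 10.01 ± 0.22 (log2, SD, n = 3 cultures each). The limma F test gave an adjusted p of 2.25e-07 for nascent and 7.25e-07 for total RNA. GM12813 was below GM07029 by 4.97-fold in nascent RNA (log2 difference -2.31, 95% interval -2.57 to -2.05, limma adjusted p = 4.19e-07) and by 4.94-fold in total RNA (-2.30, -2.58 to -2.02, adjusted p = 1.54e-06). GM10835 was below GM07029 by 2.63-fold in nascent and by 3.59-fold in total RNA. GM12813 was below GM10835 by 1.89-fold in nascent RNA (limma adjusted p = 0.000119) and by 1.37-fold in total RNA (adjusted p = 0.0145).

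CR2 fell between the same lines in the same order. Its nascent RNA averaged 9.41 ± 0.04 in GM12813, 9.96 ± 0.12 in GM10835 and 11.02 ± 0.10 in GM07029, and its total RNA 9.02 ± 0.39, 9.70 ± 0.06 and 10.68 ± 0.17 (log2, SD, n = 3 cultures each). The limma F test gave an adjusted p of 1.5e-07 for nascent and 6.02e-05 for total RNA. GM12813 was below GM07029 by 3.05-fold in nascent RNA (log2 difference -1.61, 95% interval -1.78 to -1.43, limma adjusted p = 2.83e-07) and by 3.16-fold in total RNA (-1.66, -2.04 to -1.28, adjusted p = 0.000165). GM10835 was below GM07029 by 2.09-fold in nascent RNA (log2 difference -1.06, limma adjusted p = 1.24e-06), and the total RNA difference was -0.97 (adjusted p = 0.000862). GM12813 was below GM10835 by 1.46-fold in nascent RNA (limma adjusted p = 0.000238) and 1.61-fold in total RNA (adjusted p = 0.0085). With the first GM12813 arrays alone, this total RNA difference did not pass for CR2 (limma adjusted p = 0.0679) or for CR1 (0.133).

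For both complement receptors the ratio spanned less between lines than the amounts did. The log2 ratio of CR2 was -0.41 ± 0.29 in GM12813, -0.58 ± 0.08 in GM10835 and -0.42 ± 0.14 in GM07029 and did not pass (limma adjusted p = 0.589). Between GM12813 and GM07029 it differed by 0.01, with a 95% interval of -0.31 to 0.34, which leaves room for differences of up to 0.34 on the log2 scale. The log2 ratio of CR1 was -1.98 ± 0.06 in GM12813, -1.55 ± 0.15 in GM10835 and -1.94 ± 0.05 in GM07029 and passed by a small margin (limma adjusted p = 0.0425). GM12813 minus GM10835 was -0.43 (95% interval -0.70 to -0.16, limma adjusted p = 0.0294), and GM12813 minus GM07029 was -0.05 (-0.32 to 0.23, adjusted p = 0.853). GM10835 minus GM07029 was 0.39 (95% interval 0.11 to 0.66) and did not pass (limma adjusted p = 0.0616). This call for CR1 does not hold with the second GM12813 arrays, with no filter, after the ratio's trend with signal was taken out (limma adjusted p = 0.199) or without any one of GM12813 replicates 1, 2 and 3, GM10835 replicates 2 and 3 and GM07029 replicate 3, where it reached at most 0.18.

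As deposited, FCER2 differed little, and CD52 differed more in nascent RNA (range of line means 0.61) than in total RNA (0.34). FCER2 total RNA averaged 11.82 ± 0.10 in GM12813, 11.55 ± 0.01 in GM10835 and 11.59 ± 0.12 in GM07029 (log2, SD, n = 3 each, limma adjusted p = 0.0377), with GM12813 above GM10835 by 1.2-fold (log2 difference 0.27, 95% interval 0.08 to 0.46, limma adjusted p = 0.029). The F test call is lost without GM12813 replicate 1 or 2 or without any one GM10835 culture (limma adjusted p up to 0.145). With the second GM12813 arrays it is lost as well (0.111). The pairwise difference was also lost with the second arrays (limma adjusted p = 0.0811) and reached 0.101 with a culture left out. FCER2 nascent RNA averaged 10.40 ± 0.04, 10.33 ± 0.06 and 10.36 ± 0.03 in the same lines and did not pass (limma adjusted p = 0.531), nor did its ratio (0.337). CD52 nascent RNA averaged 9.79 ± 0.13 in GM12813, 9.89 ± 0.03 in GM10835 and 9.28 ± 0.19 in GM07029 (log2, SD, n = 3 each, limma adjusted p = 0.000581). It was higher by 1.43-fold in GM12813 (limma adjusted p = 0.0046) and by 1.53-fold in GM10835 (adjusted p = 0.000309) than in GM07029, the line where CR1 and CR2 were highest. CD52 total RNA averaged 11.35 ± 0.17, 11.22 ± 0.09 and 11.01 ± 0.14 in GM12813, GM10835 and GM07029 and did not pass (limma adjusted p = 0.0555), nor did its ratio (0.237). The F test of CD52 total RNA passed without GM12813 replicate 3 (limma adjusted p = 0.023) or GM07029 replicate 1 (0.0376). GM12813 minus GM07029 alone passed, at 0.34 (1.26-fold, limma adjusted p = 0.0457), and did not without any one GM10835 culture, GM12813 replicate 1 or 2 or GM07029 replicate 2 or 3 (up to 0.127).

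The median cluster itself differed between lines, so the deposited scale matters for small differences. Over all clusters the median log2 difference in nascent RNA was -0.09 for GM12813 minus GM10835, 0.07 for GM12813 minus GM07029 and 0.16 for GM10835 minus GM07029, and in total RNA -0.05, 0.01 and 0.10. Of clusters called in nascent RNA, 25.4%, 69.1% and 75.2% were higher in the line named at the front as deposited, and 59.7%, 48.4% and 43.5% with each array centred on its median. In total RNA these shares were 33.1%, 44.3% and 60.6% as deposited and 51.5%, 49.3% and 48.3% with centring. With centring CR1 still differed by -2.38 in nascent and -2.25 in total RNA between GM12813 and GM07029, and CR2 by -1.67 and -1.61. FCER2 nascent RNA then passed (limma adjusted p = 0.00641), with a log2 difference of 0.27 for GM12813 minus GM10835 and of -0.29 for GM10835 minus GM07029. CD52 total RNA passed as well (limma adjusted p = 0.00602). With centring, CD52 for GM12813 minus GM07029 differed by 0.45 in nascent and 0.39 in total RNA, closer to each other than as deposited.

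**Figure D3:**
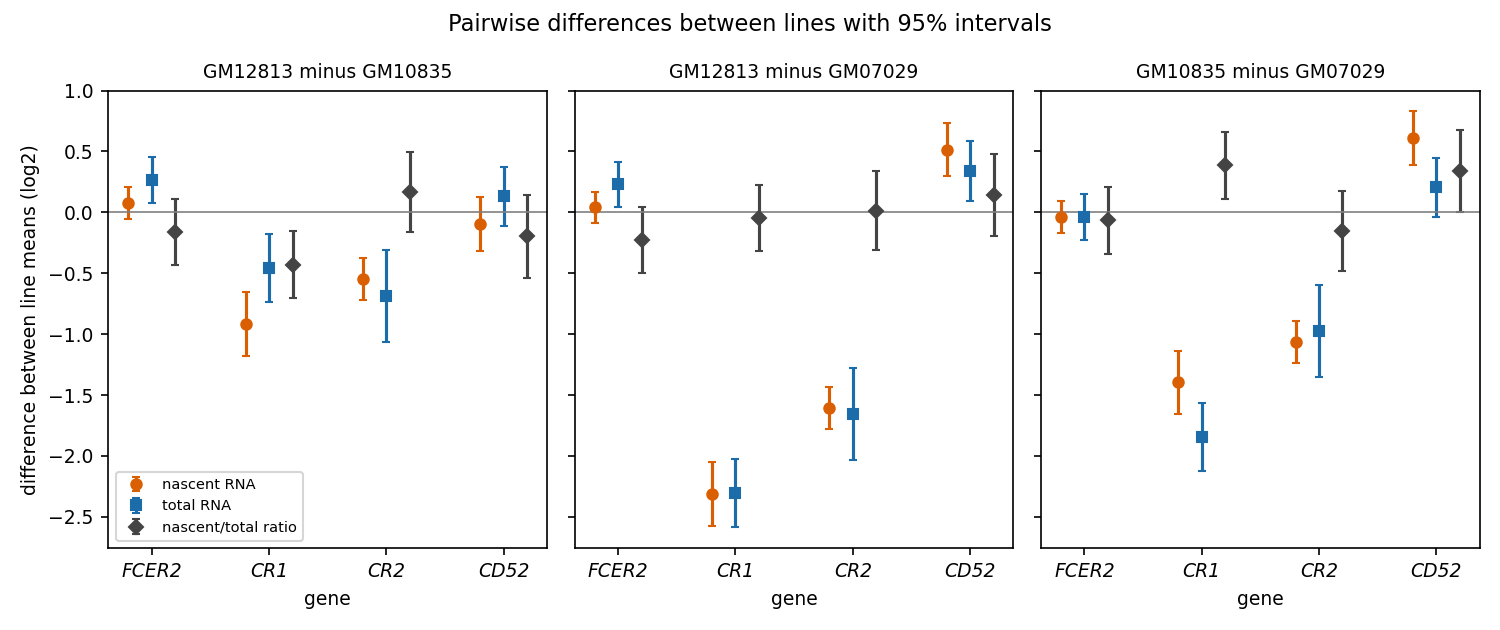
Differences between line means (log2) with 95% intervals for nascent RNA, total RNA and the nascent/total ratio, in panels for GM12813 minus GM10835, GM12813 minus GM07029 and GM10835 minus GM07029. CR1 and CR2 lie near -2.3 and -1.6 in both fractions for GM12813 minus GM07029, with ratios close to 0.

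The second arrays of the GM12813 cultures give the array error of these genes. The absolute log2 difference between both arrays of a culture and fraction had a median of 0.09 for FCER2, 0.06 for CR1, 0.12 for CR2 and 0.13 for CD52 over 6 pairs each. The largest were 0.46 for CR1 and 0.46 for CR2, both in total RNA of replicate 1, where the second array was the lower. For CR1 the largest compares with total RNA differences of -2.30 for GM12813 minus GM07029 and -0.46 for GM12813 minus GM10835. It is about as large as the latter. For CR2 the same line differences were -1.66 and -0.68. For FCER2 the largest (0.19) approaches the 0.27 between GM12813 and GM10835.

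Genes that work beside these 4 were described from lists of related genes, leaving the 4 out, with the ratio over 7 lines tested by limma. Over all clusters 31.7% were lower and 31.7% higher than the median cluster, and the median log2 ratio was -0.01. Of 22 genes listed as complement receptors and regulators, 10 were below background, 5 had no cluster of their own, and of the 5 others tested 4 were lower, none was higher, and the median log2 ratio was -0.55. ITGAX, the alpha chain of complement receptor 4, had a log2 ratio of -0.79 ± 0.34 (SD, n = 7 lines, limma adjusted p = 8.26e-05), its beta chain ITGB2 -0.55 ± 0.34 and the C1q-binding protein gene C1QBP -0.55 ± 0.26. CD55, which speeds the decay of the C3 convertase and lies beside CR2, was at -0.40 ± 0.09. As deposited, all 5 differed between the 3 lines in total RNA, against 56.2% of all clusters. C5AR1, a receptor for C5a, had total RNA of 7.43 in GM12813, 6.06 in GM10835 and 7.19 in GM07029 (log2, limma adjusted p = 2.77e-06), the GM10835 value being below background.

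In the coreceptor of CR2 1 of 5 other genes tested was lower and 2 were higher, with a median log2 ratio of -0.15. CD81, the tetraspanin of the complex, was lower, at -0.57 ± 0.36, and its total RNA was 10.64 in GM12813, 11.29 in GM10835 and 9.63 in GM07029 (log2, limma adjusted p = 4.16e-06), with GM07029 at the bottom where CR2 was at the top. The kinase subunit PIK3CD (0.48 ± 0.21) and the exchange factor VAV1 (0.37 ± 0.19) were higher. IFITM1, an interferon-induced partner of the complex, had a log2 ratio of -0.34 ± 0.50 that did not pass (limma adjusted p = 0.0664) and total RNA highest in GM10835 (10.99).

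Among 10 other genes listed as partners and inducers of CD23, 4 were lower and 6 higher, with a median log2 ratio of 0.34. Among the higher ones were PAX5, the B cell identity factor, at 1.06 ± 0.15, NOTCH1 at 1.05 ± 0.27, the kinase gene FYN at 0.91 ± 0.18 and RBPJ at 0.54 ± 0.31 (log2 ratio, SD, n = 7 lines). ITGB3, the beta chain of an integrin that binds CD23, was lower, at -1.04 ± 0.27, as was STAT6, which carries the interleukin-4 signal to FCER2, at -0.98 ± 0.27 (limma adjusted p = 6.13e-06, a gene named after its value was seen). RBPJ total RNA was highest in GM10835 (9.36, against 8.80 in GM07029, log2), and NOTCH1 total RNA did not pass between lines (limma adjusted p = 0.0746). ADAM10 was only on shared clusters and was not analysed.

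Of 47 tested B cell surface antigens, 26 were lower, 8 higher and 13 did not pass, with a median log2 ratio of -0.36. MS4A1 (CD20) and CD79A, at -1.96 ± 0.45 and -1.97 ± 0.25, came closest to FCER2 and CR1, CD22 was at -1.19 ± 0.28, and the chemokine receptor gene CXCR4 was at the other end, at 2.14 ± 0.26. CD1C, which presents lipid antigens, had the same order of lines as CR1 and CR2 in total RNA, with 7.27 in GM12813, 9.04 in GM10835 and 9.89 in GM07029 (log2, limma adjusted p = 2.83e-07). CD151 ran the other way at GM07029, with 8.23, 9.15 and 6.95 in the same lines. Of 13 other GPI-anchored proteins 5 were lower, 4 higher and 4 did not pass, with a median log2 ratio of 0.01, against -2.24 for CD52. CD52 was chosen for its low ratio, so this contrast is a description. LY6E was lower (-1.28 ± 0.34) and BST2 higher (1.45 ± 0.37), with a mean total RNA below background (6.25 over all lines), CD48 was at -0.54 ± 0.18, and PRNP was at 1.58 ± 0.95, with total RNA below background in GM12813 (4.44) and GM07029 (5.86). NT5E (CD73) had total RNA of 8.67 in GM12813, 8.24 in GM10835 and 6.42 in GM07029 (log2, limma adjusted p = 3.83e-06). The GM07029 value lay just above background (6.39), and nascent RNA in that line (6.31) lay below it.

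**Figure D4:**
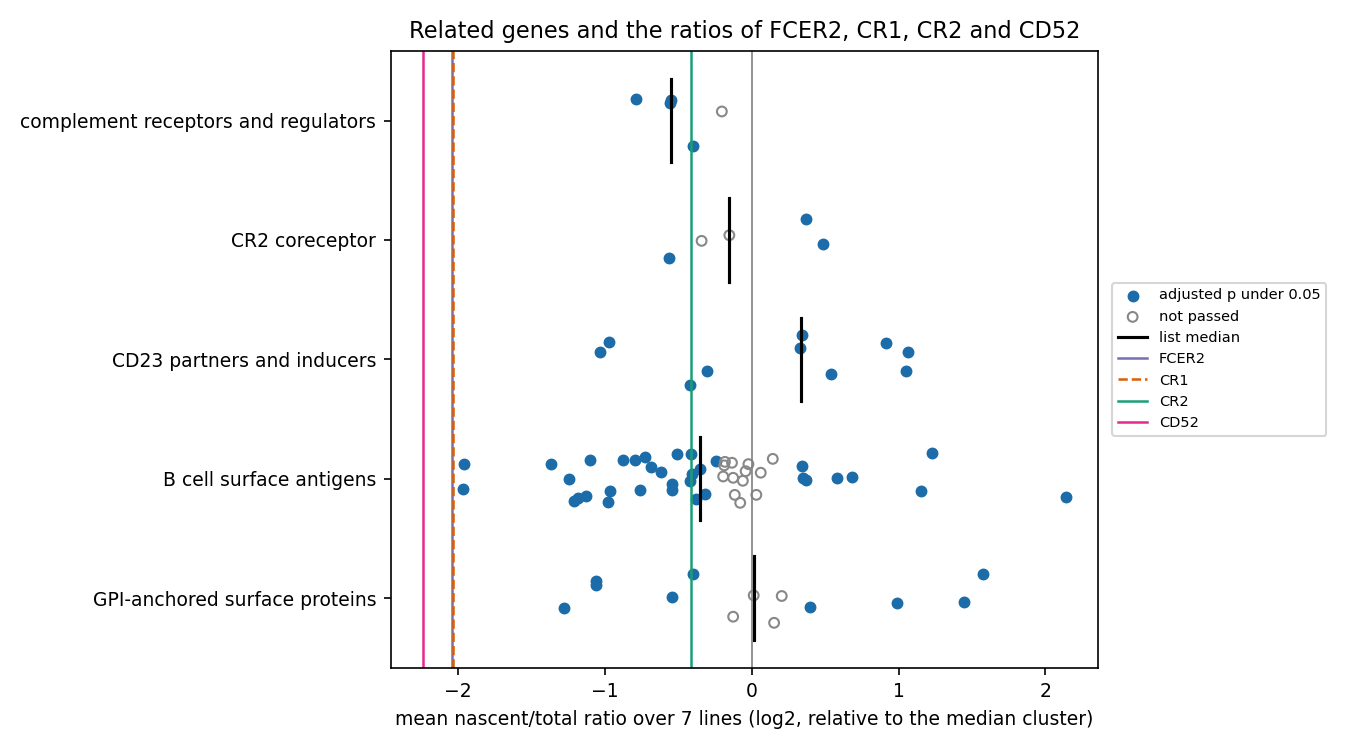
Mean nascent/total ratio over 7 lines (log2, relative to the median cluster) of the tested genes of 5 lists, 1 point per gene, filled where the adjusted p was under 0.05, with a black bar at the median of each list and coloured lines at FCER2, CR1, CR2 and CD52. FCER2, CR1, CR2 and CD52 are left out of the points. No point lies below FCER2 or CR1 (-2.04), which were chosen for low ratios, though CD79A (-1.97) and MS4A1 (-1.96) lie close. CR2 (-0.42) lies among the others.

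The genes nearest on the chromosome are described for each locus, and a pattern shared with the 4 genes was not tested. Of the 8 nearest protein-coding neighbours of CR2 and CR1, 4 on each side, 4 were below background (C4BPA, C4BPB, CD34 and PLXNA2), 3 had no cluster of their own, and CD55 alone was tested. CD55 total RNA was 11.30 in GM12813, 11.64 in GM10835 and 11.58 in GM07029 (log2, limma adjusted p = 0.00671, 0.104 with arrays centred), a log2 difference of -0.28 for GM12813 minus GM07029, against -1.66 for CR2 and -2.30 for CR1. Of the 4 tested neighbours of FCER2, 1 passed in total RNA, TRAPPC5, a subunit of a vesicle tethering complex, with 8.46 in GM12813, 10.36 in GM10835 and 8.80 in GM07029 (limma adjusted p = 2.99e-07). Of the 4 tested neighbours of CD52, 3 passed in total RNA, against 56.2% of all clusters.

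The clusters whose total RNA was most like that of each gene were found by Pearson correlation over the 13 cultures, 9 of which come from 3 lines, and are a description. For CR2 they were TAF1 (r = 0.956), POP1 (0.938) and LTV1 (0.925), for CR1 SLC60A2 (0.901), CHML (0.897) and F2R (0.893), for CD52 PARP3 (0.91), SERINC5 (0.907) and HNRNPDL (0.898), and for FCER2 GRAMD4 (0.9), MGAT4A (0.856) and IGF1 (0.844). In nascent RNA, which did not pick them, r stayed high for F2R with CR1 (0.898), TAF1 with CR2 (0.825) and PARP3 with CD52 (0.816). It was lower for GRAMD4 with FCER2 and SLC60A2 with CR1 (0.346 each) and LTV1 with CR2 (0.417). Both fractions come from the same cultures, so r in nascent RNA is no independent check. Over the 7 line means of total RNA, r was 0.774 for F2R with CR1, 0.992 for TAF1 with CR2 and 0.894 for PARP3 with CD52. CR1 was not among the 3 clusters most like CR2, nor CR2 among those most like CR1.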

How the data were processed

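The authors deposited log2 intensities summarised per transcript cluster, 1 column per array. Per the labels' protocols, ribosomal RNA was reduced and array targets came from Affymetrix whole-transcript reagents. Affymetrix Power Tools and hg18 are named in the submitters' processing notes. Its version, the summary algorithm and any joint normalization of both fractions: not given in the sources used here. Symbols came from the platform table (14405 clusters with 1 symbol, 2365 with several, 5018 with none; 14377 were in RefSeq). GM12813 duplicate arrays were averaged per culture. The 9 replicated cultures were compared with limma 3.58.1 in R 4.3.3 (lmFit, eBayes with trend, moderated F and pairwise contrasts, two-sided, Benjamini-Hochberg over 14197 clusters), and 7 line means of the ratio were tested against 0 the same way. The steps were tested on simulated data. The number of arrays limits precision.

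The genes and lists were chosen with earlier results of these data known. Named from each list were the 3 largest ratios and 2 largest total RNA ranges past the threshold, plus CD81, IFITM1, ADAM10, CD55, CD46, CD59, CR1L, MS4A1, CD22 and CD48; CD46 and CD59 had only shared clusters and are not analysed here, and some items are not reported here. Same-numbered cultures did not deviate in a common direction over the 3 lines (correlations from -0.46 to 0.39 over 9 pairs of cultures in nascent RNA). For GM12813 with GM07029 the correlations were 0.393, -0.199 and 0.351 in replicates 1, 2 and 3. Replicate numbers were therefore not used as pairs, though some shared deviation is not excluded. The alternatives were normalization, filter, duplicates, variance model, centring, removal of the trend with signal, and leaving out cultures or lines. Olfactory receptor clusters included pseudogenes.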

Additional observations from a re-analysis of the deposited data

Results flagged for a closer look

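FCER2 total RNA in the 1 culture of GM12814 had a log2 intensity of 10.575, while the other 6 lines lay between 11.52 and 11.87. The gap to the next line was 0.73 of the whole range, which is past Dixon's limit for 7 values. It was 1 of 12 sets of line values examined (3 measures of 4 genes), and chance passes about 1 set in 20. The FCER2 ratio of GM12814 was -1.94, inside the span of the other lines.

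The CR1 ratio differed between GM12813, GM10835 and GM07029 with a limma adjusted p of 0.0425, against 25.3% of all clusters that passed. GM10835 had the highest mean, at -1.55 ± 0.15 (log2, SD, n = 3), against -1.98 ± 0.06 in GM12813 and -1.94 ± 0.05 in GM07029. GM12813 minus GM10835 passed (limma adjusted p = 0.0294), and GM10835 minus GM07029 did not (0.0616). CR1 nascent RNA in GM12813 was near background (6.52, against 6.39), and its part in the difference was not tested.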

How the results depend on the processing

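By F test between 3 lines, the calls for CR1 and CR2 in nascent and total RNA, for CD52 in nascent RNA, and the lack of a call for the ratios of FCER2, CR2 and CD52 stood under every alternative run. Of the pairwise calls, GM12813 minus GM10835 in total RNA was lost for CR1 (0.133) and CR2 (0.0679) with the first GM12813 arrays. Adjusted p values below are from limma. The CR1 ratio lost its call with no filter (0.0959), the second GM12813 arrays (0.0977), the replicate block (0.0696), no centring (0.0654) and the signal trend removed (0.199), and ran from 0.0282 to 0.18 with a culture left out. FCER2 total RNA lost it with the second arrays (0.111), the replicate block (0.0821) and no variance trend (0.0702), and ran from 0.0322 to 0.145. CD52 total RNA passed with quantile normalization (0.00384), the first arrays (0.049), the replicate block (0.0428) and arrays centred (0.00602), and ran from 0.023 to 0.164. FCER2 nascent RNA passed with quantile normalization (0.0153) and arrays centred (0.00641). What same-numbered cultures share beyond the number is not known, and the block changed no other call of the 4 genes by F test. Clusters with a differing ratio between lines numbered 3591, 2012 with no filter, 2132 with the first arrays and 1802 to 5060 with a culture left out (2351, 2232 and 1802 without GM10835 replicate 1, 2 and 3, and 1939 and 2078 without GM12813 replicate 2 and 3).

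Nascent arrays had higher medians than total arrays. Without centring, 762 clusters were lower and 11666 higher over 7 lines. The log2 ratios were then -1.267 for FCER2, -1.264 for CR1, 0.358 for CR2 and -1.467 for CD52. List counts were then 0 lower and 2 higher (complement), 0 and 4 (coreceptor), 1 lower (CD23 partners), 9 and 31 (surface antigens) and 3 and 10 (GPI-anchored). The log2 ratios of ITGB2 (0.219), C1QBP (0.224), C5AR1 (0.57), CD55 (0.374), CD81 (0.208), IFITM1 (0.431), CD1C (0.011) and CD48 (0.232) turned positive. With the signal trend removed, FCER2 was at -1.712, CD52 at -2.017 and CD55 at 0.076, and the lower counts were 0 (coreceptor) and 3 (GPI-anchored). With 13 cultures in place of lines, 3 coreceptor genes were lower, and 1 to 2 with a line left out (2 without GM12812 or GM12814). No gene had a second cluster to try. The causes of these changes were not tested.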
